A study of Mus musculus with 6 samples.

Results

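The extracellular matrix and fibroblast genes described here are 40 named genes: collagens, basement membrane proteins, matrix glycoproteins, proteoglycans, matrix-remodelling enzymes and inhibitors, IGF binding proteins and stromal cell markers. A gene was taken through the array probe sets that the platform annotation gives to its symbol alone, and where it had several the probe set with the highest mean over the 6 arrays stood for it. Of the 40 genes, 39 had such a probe set and all 39 lay above the filter on low values, among 9395 genes tested and 12393 genes on the array. Fbn1, the fibrillin-1 gene, had no such probe set, so its expression was not analysed here. RNA of the stomach antrum, the distal part of the stomach that holds the mucous and gastrin-producing glands, was hybridized to Affymetrix arrays, 2 each for Satin, Beige and C57/BL6 mice. As background, Satin mice are known to carry a mutation of Foxq1, a forkhead transcription factor gene, and have a satin coat. Beige mice are known to carry a mutation of Lyst, a gene of lysosome-related organelles, and were titled as controls, as were the C57/BL6 mice, an inbred laboratory strain. The series asked how gastric cell lineages depend on FOXQ1. The genetic backgrounds, ages and sexes of the mice are not stated in the labels. The design text names 2 mice of each strain without tying an array to an animal, so the p-values measure only the spread between these arrays. With 1 mutant strain, the Foxq1 mutation and other differences of the Satin strain cannot be told apart.

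Fibroblasts lie in the lamina propria and between the muscle layers of the stomach wall. They secrete fibrillar collagens, fibronectin and small proteoglycans, which form the interstitial matrix, while epithelial, endothelial and muscle cells rest on basement membranes of type IV collagen, laminins and nidogen. Lysyl oxidase crosslinks collagen and elastin, matrix metalloproteinases cleave matrix, and TIMPs inhibit them. IGF binding proteins are secreted carriers that hold insulin-like growth factors in tissue and blood and so limit or prolong their action. Many of these genes are also expressed by smooth muscle cells and pericytes.

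All values below are log2(signal + 32) after quantile normalization between arrays, a difference of 1 being a doubling of signal for bright genes and understating the change of dim ones. Median deposited signals were 58.6 to 74.15 in Satin, 49 to 49.5 in Beige and 38.2 to 47.6 in C57/BL6. For Gapdh, whose 5' to 3' signal ratio drops when RNA is degraded, that ratio was 0.526 on C57/BL6 replicate 1 and 0.988 to 1.18 on the other 5 arrays. Fibroblast markers among the 39 genes (Col1a1, Col1a2, Col3a1, Dcn, Lum, Pdgfra and Vim) lay between 7.12 and 11.65 on every array, above the filter of 5.74. The 11 markers of gastric gland and pit epithelium differed in Satin from both controls by a median of 0.03, with 6 above 0. Without the mucin gene Muc5ac, the 1 marker called, their means were 12.17 and 12.17 in Satin, 12.08 and 12.15 in Beige, and 12.06 and 11.97 in C57/BL6. In bulk tissue, fewer cells of a type and less RNA per cell cannot be told apart.

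In the Satin antrum 2 of the 39 matrix and fibroblast genes passed the test against the mean of Beige and C57/BL6. This main fit did not pair the arrays by replicate number. With that number as a block, 1 of the 39 passed, Igfbp4. The 2 genes of the main fit encode IGF binding proteins, and they moved in opposite directions: Igfbp4 rose 1.82-fold and Igfbp5 fell by 0.77 on the log2 scale. A gene was called at an adjusted p under 0.05 (limma, Benjamini-Hochberg over all 9395 genes), and 1.44% of all genes tested were called. Without adjustment 13 of 39 genes had a p under 0.05, 3 higher and 10 lower, against 12.6% of all genes. The median difference of the 39 genes was -0.21, with 27 below 0 and 12 above, while the median over all genes was 0.00 with 50.2% below 0. Without C57/BL6 replicate 1 the median relative to all genes was -0.08, with 23 genes below the bulk, and without C57/BL6 replicate 2 it was -0.32, with 28 below.

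**Figure D1:**
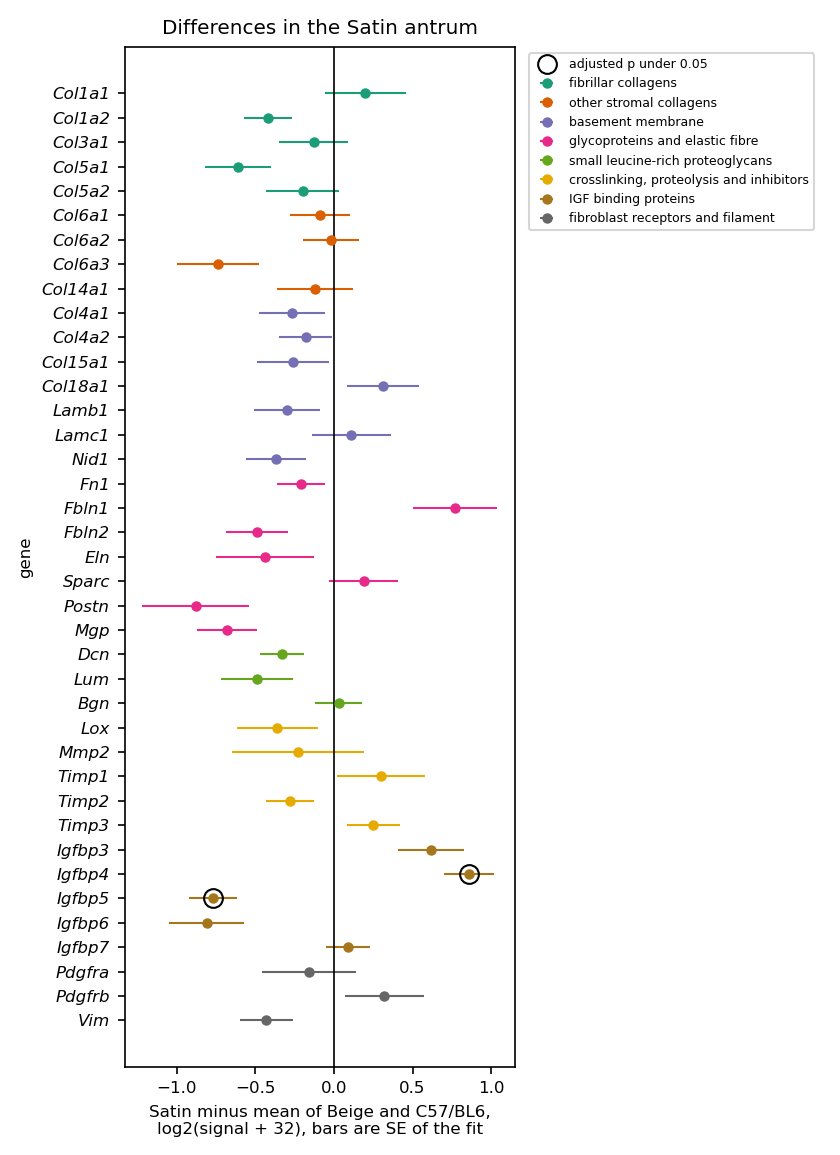
Difference between Satin and the mean of Beige and C57/BL6 for each of the 39 genes (x axis, log2(signal + 32); bars are the SE of the fitted difference), one row per gene, coloured by role. Igfbp4 (0.86) and Igfbp5 (-0.77) are ringed as the genes that passed the test, and 27 of the 39 points lie left of 0.

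Igfbp4 encodes an IGF carrier that inhibits IGF action until it is cleaved. Its level was 10.94 and 10.85 in Satin, 10.01 and 10.27 in Beige, and 9.71 and 10.12 in C57/BL6. Both Satin arrays lay above all 4 control arrays. The means were 10.89 ± 0.07 in Satin, 10.14 ± 0.19 in Beige and 9.92 ± 0.29 in C57/BL6 (SD, n = 2 each). The difference was 0.86 (SE 0.16, limma adjusted p = 0.0338). Igfbp4 had 6 probe sets, and the 5 others also gave a higher signal in Satin, by 0.62 to 1.01. On 5 of the 6 both Satin arrays lay above all controls.

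Igfbp5 encodes an IGF binding protein that is retained in the matrix and is made by smooth muscle cells and fibroblasts. Its level was 8.05 and 8.05 in Satin, 8.82 and 8.66 in Beige, and 8.86 and 8.96 in C57/BL6. Both Satin arrays lay below all controls, and the difference was -0.77 (SE 0.15, limma adjusted p = 0.0366). With the replicate number as a block the adjusted p was 0.0633 for Igfbp5 and 0.0356 for Igfbp4, so that 1 of 39 genes was called. A second, dimmer probe set of Igfbp5 gave 0.32, with 6.38 and 6.58 in Satin, 5.88 and 7.29 in Beige, and 5.75 and 5.72 in C57/BL6, where the groups overlapped. Leaving out either Beige array or either Satin array ended both calls. For replicates 1 and 2 of Beige and then of Satin, the limma adjusted p was 0.198, 0.127, 0.31 and 0.122 for Igfbp4 and 0.187, 0.127, 0.328 and 0.199 for Igfbp5, with differences of 0.80 to 0.93 and -0.82 to -0.72.

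The sequences before the start sites of this pair are shown because they are the genes of the set that passed the test, in opposite directions, in a strain with a mutated forkhead factor. Each run is 250 bases, 5′ to 3′ on the gene's strand, ending at the base before the RefSeq start (GRCm38.p6): chr11:99040994-99041243 on the plus strand and chr1:72874866-72875115 on the minus strand. Capitals mark the letters TATAAA, the TATA box.
Igfbp4: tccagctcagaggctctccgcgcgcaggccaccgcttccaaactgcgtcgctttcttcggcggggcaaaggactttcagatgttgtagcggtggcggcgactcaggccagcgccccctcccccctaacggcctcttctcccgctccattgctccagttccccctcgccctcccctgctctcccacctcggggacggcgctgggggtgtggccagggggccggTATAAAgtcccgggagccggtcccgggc
Igfbp5: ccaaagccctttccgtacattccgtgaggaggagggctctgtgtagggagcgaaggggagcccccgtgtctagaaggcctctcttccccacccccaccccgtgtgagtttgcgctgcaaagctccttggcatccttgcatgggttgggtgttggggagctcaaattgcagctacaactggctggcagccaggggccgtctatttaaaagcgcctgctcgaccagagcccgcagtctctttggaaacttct

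The letters searched were TGTTTA (the core of forkhead sites), TATAAA and GGGCGG (the GC box), on both strands of the 250 bases before each start. TGTTTA and TATAAA can overlap each other when they lie on opposite strands. Igfbp4 held TATAAA, beginning 28 bases before the start, and neither of the others. Igfbp5 held none of them, which says only that these letters are not in this window. The Igfbp4 window was 69.2% G or C with 22 CpG pairs, and the Igfbp5 window 58.8% with 10. Of the 40 genes 28, Fbn1 included, had a sequence in the RefSeq table, with 32 start windows. TGTTTA was in 4 of these 32 (Col3a1, Col6a1, Sparc and Timp3), against 12% of 32851 windows of all genes. TATAAA was in 5 of 32 against 12.4%, and GGGCGG in 16 of 32 against 32.7%.

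The other IGF binding protein genes spread to both sides. Igfbp3, the gene of the main IGF carrier of blood, was at 7.46 and 7.40 in Satin, 6.44 and 6.88 in Beige, and 6.98 and 6.94 in C57/BL6. Igfbp6, whose product prefers IGF-II, was at 6.42 and 6.55 in Satin, 7.67 and 7.16 in Beige, and 6.91 and 7.42 in C57/BL6. Neither overlapped the controls, Igfbp3 above them and Igfbp6 below. Their differences of 0.62 (SE 0.21, limma adjusted p = 0.227) and -0.81 (SE 0.24, limma adjusted p = 0.167) did not pass the test. Igfbp7, a vascular and stromal IGF binding protein gene of low IGF affinity, was at 10.28 and 10.13 in Satin, 9.99 and 10.31 in Beige, and 10.08 and 10.06 in C57/BL6, with full overlap. Of the remaining IGF axis genes (10 listed, 8 tested) none was called, with a median of 0.39. The smallest p-values were those of Irs1, a receptor substrate (0.53, SE 0.20, limma adjusted p = 0.291), and Igf1, the ligand (0.57, SE 0.24, limma adjusted p = 0.351). Igf1 was at 7.97 and 7.21 in Satin, 6.87 and 6.95 in Beige, and 7.21 and 7.04 in C57/BL6, and its other probe sets gave 0.37 and -0.27.

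**Figure D2:**
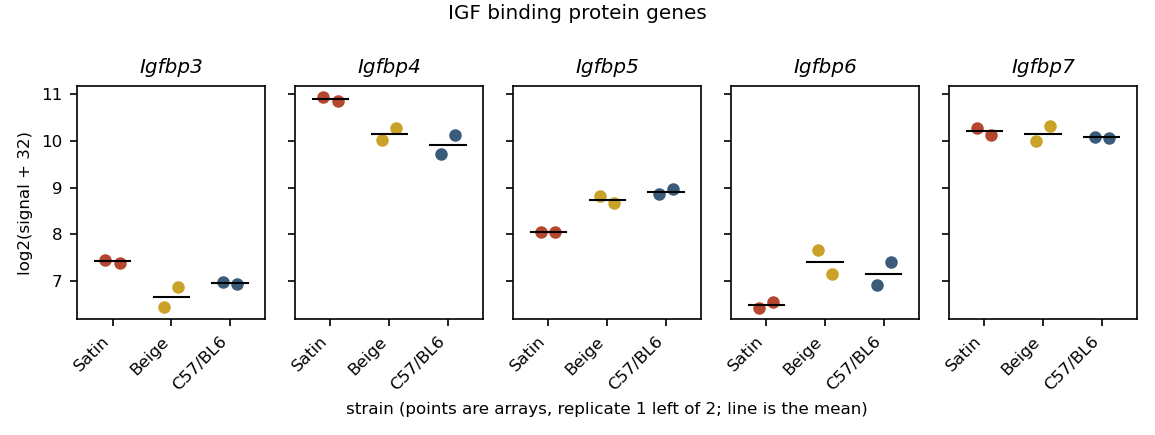
Level of the 5 IGF binding protein genes on each array (y axis, log2(signal + 32)) by strain; points are arrays with replicate 1 on the left, and the line is the strain mean. Satin lies above both controls for Igfbp3 and Igfbp4, below both for Igfbp5 and Igfbp6, and among them for Igfbp7.

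The fibrillar collagen genes, which encode the tensile fibres of connective tissue, did not pass the test (0 of 5), and 4 of 5 lay below 0 (median -0.20). Col5a1, a chain of the type V collagen that sets fibril diameter, was at 7.32 and 7.54 in Satin, 7.88 and 8.13 in Beige, and 8.35 and 7.78 in C57/BL6. Its Satin arrays lay below all controls, with a difference of -0.61 (SE 0.21, limma adjusted p = 0.242). Col1a1, a type I collagen chain, was at 8.55 and 8.27 in Satin, 8.06 and 8.18 in Beige, and 7.79 and 8.80 in C57/BL6, whose own arrays enclosed all others. The other type I chain gene, Col1a2, was highest on the C57/BL6 arrays, with 9.57 and 9.31 in Satin, 9.56 and 9.80 in Beige, and 10.12 and 9.95 in C57/BL6. Col3a1 and Col5a2 differed by -0.13 and -0.20. A second probe set gave 0.04 for Col1a1 and -0.39 for Col1a2, in the direction of the first, but 0.15 for Col3a1 and 0.06 for Col5a2, against it.

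Among the 4 other stromal collagen genes none was called, all 4 lay below 0 and the median was -0.11. Col6a3, a chain of the microfibrillar type VI collagen around cells, was at 7.58 and 7.53 in Satin, 8.03 and 8.37 in Beige, and 8.88 and 7.91 in C57/BL6. The Satin arrays lay below all controls, and the difference was -0.74 (SE 0.26, limma adjusted p = 0.253, and 0.0212 without C57/BL6 replicate 2). The 2 other chains of the same protein, Col6a1 and Col6a2, differed by -0.09 and -0.02, and their arrays overlapped. Col6a2 was at 9.08 and 8.86 in Satin, 8.58 and 9.01 in Beige, and 9.37 and 8.98 in C57/BL6. Col14a1, a fibril-associated collagen gene, differed by -0.12.

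Of 7 basement membrane genes none was called, 5 lay below 0 and 2 above (median -0.26). Nid1, whose product nidogen links laminin to type IV collagen, was at 7.11 and 7.05 in Satin, 7.38 and 7.58 in Beige, and 7.60 and 7.25 in C57/BL6. Its difference of -0.37 (SE 0.19, limma adjusted p = 0.48) had the largest size of the 7, with no overlap between Satin and the controls. Col18a1, the precursor of endostatin, stood at the other end with 0.31 (SE 0.23), at 8.16 and 8.03 in Satin, 7.73 and 7.83 in Beige, and 8.22 and 7.36 in C57/BL6. A second, dimmer Col18a1 probe set past the filter gave 0.41, with both Satin arrays (7.71 and 7.75) above all controls (7.26 to 7.39). Col4a1, a main type IV chain gene, was at 9.23 and 8.94 in Satin, 8.86 and 9.31 in Beige, and 9.93 and 9.32 in C57/BL6. Satin and Beige overlapped there, with a difference of 0.00 (SE 0.24). A second Col4a1 probe set gave 0.03 for Satin against the 4 control arrays. Col4a2, Col15a1, Lamb1 and Lamc1 differed by -0.18, -0.26, -0.30 and 0.11. In a list of further basement membrane genes (15 listed, 11 tested), 1 fell, Lamb3, a laminin chain gene of epithelial anchorage, and none rose. Lamb3 was at 6.93 and 6.80 in Satin, 8.09 and 8.03 in Beige, and 7.86 and 8.18 in C57/BL6, a difference of -1.17 (SE 0.18, limma adjusted p = 0.0142). It was called against Beige and against C57/BL6 singly as well, but with the replicate block only against their mean (limma adjusted p = 0.0239, with 0.0504 against Beige and 0.0673 against C57/BL6). Omitting either Beige array (limma adjusted p = 0.107 and 0.0749) or either Satin array (0.108 and 0.0944) ended the call against the mean. The median of the 11 was -0.05.

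The glycoprotein and elastic fibre genes ranged from -0.88 for Postn to 0.77 for Fbln1, with 0 of 7 called, 5 below 0 and a median of -0.44. Postn, the gene of periostin, a matricellular protein of fibroblasts, was at 9.23 and 9.28 in Satin, 9.55 and 10.56 in Beige, and 10.82 and 9.62 in C57/BL6. The controls differed among themselves by more than 1 within each strain, and the difference of Satin had an SE of 0.34 (limma adjusted p = 0.309). Fbln1, the gene of fibulin-1 of elastic fibres and basement membranes, was at 8.37 and 8.06 in Satin, 8.0 and 7.55 in Beige, and 6.64 and 7.58 in C57/BL6. The Satin arrays lay above all controls, narrowly above Beige replicate 1, with an SE of 0.27 and a limma adjusted p = 0.262 (0.0397 without C57/BL6 replicate 2). A dimmer probe set of Fbln1 gave 0.17. Fbln2, the gene of the related fibulin-2, went the other way, with 6.48 and 6.39 in Satin, 7.23 and 7.30 in Beige, and 6.56 and 6.63 in C57/BL6 (difference -0.49, SE 0.20, limma adjusted p = 0.341).

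Mgp, the gene of matrix Gla protein, an inhibitor of calcification made by smooth muscle and stromal cells, set Beige apart. It was at 8.12 and 8.0 in Satin, 8.94 and 9.36 in Beige, and 8.11 and 8.54 in C57/BL6, so that Satin overlapped C57/BL6 but not Beige. The difference was -0.68 (SE 0.19, limma adjusted p = 0.14) against both controls and -1.09 (limma adjusted p = 0.0613) against Beige. Fn1, Eln and Sparc, the genes of fibronectin, elastin and osteonectin, differed by -0.21, -0.44 and 0.19. The small leucine-rich proteoglycan genes, whose products coat collagen fibrils, were not called (0 of 3). Lum was at 8.30 and 8.73 in Satin, 8.92 and 8.99 in Beige, and 9.46 and 8.66 in C57/BL6 (difference -0.49, SE 0.23). Dcn, at 10.40 and 10.40 in Satin, 10.71 and 11.03 in Beige, and 10.60 and 10.60 in C57/BL6, did not overlap the controls and differed by -0.33 (SE 0.14, limma adjusted p = 0.36). Bgn, at 9.28 and 8.99 in Satin, 8.98 and 9.21 in Beige, and 9.09 and 9.12 in C57/BL6, differed by 0.03 with full overlap.

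Of the crosslinking enzyme, protease and inhibitor genes 0 of 5 were called (median -0.23). Lox, the lysyl oxidase gene, was at 6.35 and 6.70 in Satin, 7.17 and 7.17 in Beige, and 6.99 and 6.23 in C57/BL6 (difference -0.36, SE 0.26). Mmp2, the gelatinase A gene, varied more within C57/BL6 than between strains on its brightest probe set. That probe set was at 7.65 and 7.96 in Satin, 8.0 and 8.53 in Beige, and 8.72 and 6.87 in C57/BL6. The other probe set of Mmp2, past the filter, gave -0.52 without overlap. It was at 7.43 and 7.34 in Satin, 7.93 and 7.98 in Beige, and 8.16 and 7.57 in C57/BL6. Timp1, an inhibitor gene near the filter, was at 6.21 and 6.38 in Satin, 6.08 and 6.30 in Beige, and 5.57 and 6.03 in C57/BL6 (difference 0.30, SE 0.28). Timp2 and Timp3 differed by -0.28 and 0.25 without overlap, and neither passed the test. Other probe sets of Timp3 ran from -0.81 to 0.21. Among the stromal cell markers (0 of 3 called), Vim, the intermediate filament gene of mesenchymal cells, was at 8.97 and 9.48 in Satin, 9.78 and 9.92 in Beige, and 9.34 and 9.58 in C57/BL6 (difference -0.43, SE 0.17, limma adjusted p = 0.33). The PDGF receptor genes Pdgfra and Pdgfrb, of fibroblasts and of pericytes, differed by -0.16 and 0.32. Pdgfrb was at 6.51 and 6.38 in Satin, 6.18 and 6.23 in Beige, and 6.19 and 5.90 in C57/BL6.

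Counted by overlap alone, both Satin arrays lay below all 4 control arrays in 11 of 39 genes, against 12.7% of all genes tested, and above them in 5 of 39, against 10.9%. The 11 lower ones were Col5a1, Col6a3, Lamb1, Nid1, Fn1, Fbln2, Postn, Dcn, Timp2, Igfbp5 and Igfbp6. The separation was very narrow for Fn1 (Satin replicate 2 and Beige replicate 1 both 9.19 after rounding). It was also narrow for Lamb1 (6.72 on Satin replicate 1 and 6.74 on C57/BL6 replicate 2). The 5 higher ones were Fbln1, Timp3, Igfbp3, Igfbp4 and Pdgfrb. Among these the separation was narrow for Fbln1 (8.06 on Satin replicate 2 and 8.0 on Beige replicate 1). It was small too for Timp3 (7.92 on Satin replicate 1 and 7.78 on Beige replicate 2) and Pdgfrb (6.38 on Satin replicate 2 and 6.23 on Beige replicate 2). A second Pdgfrb probe set, below the filter, gave 0.08 with overlap. The lower ones came from 7 of the 8 role groups and the higher ones from 4.

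**Figure D3:**
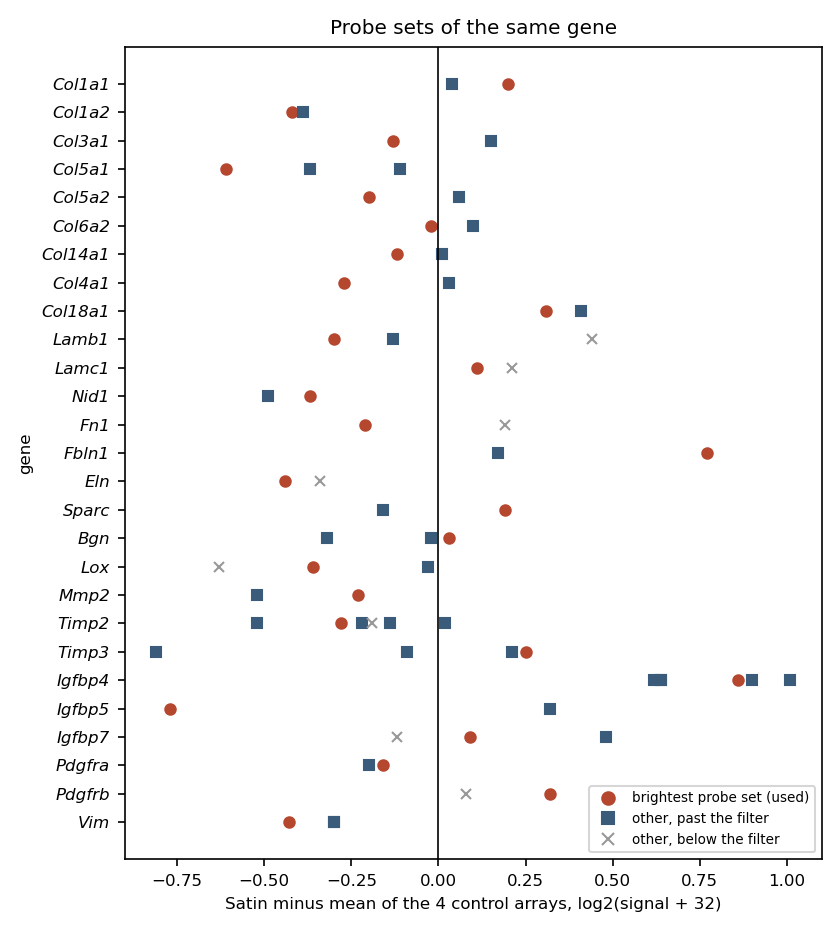
Difference between the Satin arrays and the mean of the 4 control arrays (x axis, log2(signal + 32)) for every probe set of the 27 genes with more than 1; circles are the probe sets used, squares others past the filter, crosses others below it. The 6 probe sets of Igfbp4 lie between 0.62 and 1.01, while the second probe set of Igfbp5 lies on the other side of 0.

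More than 1 probe set was present for 27 of the 39 genes. Of the 35 further probe sets past the filter, 23 gave a difference of the same sign as the brightest one. Igfbp5, Timp3, Sparc and Col3a1 were among those whose further probe sets past the filter disagreed in sign.

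Taken against each control strain singly, which the series allows because both were titled as controls, no gene of the 39 passed the test. Against Beige, 0.894% of all genes were called, and at an unadjusted p under 0.05 there were 9 of 39 against 10.5% of all genes. Igfbp4 differed by 0.75 and Igfbp5 by -0.69 (limma adjusted p = 0.131 and 0.127), and Mgp, at -1.09, had the smallest p. Against C57/BL6, 0.745% of all genes were called, and at an unadjusted p under 0.05 there were 8 of 39 against 12.6%. There Igfbp4 differed by 0.98 and Igfbp5 by -0.86 (limma adjusted p = 0.0522 and 0.0612), and Fbln1 by 1.10 (limma adjusted p = 0.195). These comparisons share the Satin arrays. The medians of the 39 genes were -0.19 and -0.20, but without C57/BL6 replicate 1 the median against C57/BL6, relative to all genes, was -0.03, and without C57/BL6 replicate 2 it was -0.37.

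Between Beige and C57/BL6, the control strains, none of the 39 genes and none of the 9395 (0%) was called with limma. At an unadjusted p under 0.05 there were 2 of 39, both higher in Beige, against 5.13% of all genes. They were Mgp (0.82, limma adjusted p = 0.864) and Fbln2 (0.67, limma adjusted p = 0.864). The gene with the next smallest p was Col4a1 (-0.54). Its other probe set, past the filter, was at 8.08 and 8.61 in Beige and at 8.01 and 8.60 in C57/BL6. The median of the 39 genes was -0.01, and 0.19 relative to all genes without C57/BL6 replicate 1.

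The 39 genes differed more between the 2 C57/BL6 arrays than between those of Satin or Beige. Replicate 1 was the highest of the 6 arrays for 19 of 39 genes (48.7%, against 25.3% of all genes tested), among them Col3a1, Col5a1, Col5a2, Col6a1, Col6a2, Col6a3, Col4a1, Postn, Mmp2 and Pdgfra. It was the lowest for 6 of 39 (15.4%, against 21.9% of all genes tested), Col1a1, Fbln1, Sparc, Timp1, Timp3 and Igfbp4. Of the genes named, Col3a1, Col6a2 and Mmp2 had a further probe set past the filter that also peaked on this array. Those of Col4a1, Col5a2 and Pdgfra did not, that of Col4a1 being lowest there at 8.01, and those of Col5a1 were split. Further probe sets of Fbln1 and Igfbp4 were again lowest on it, those of Col1a1 and Sparc were not, and those of Timp3 were split. The gap between the arrays of a strain had a median size over the 39 genes of 0.15 in Satin, 0.24 in Beige and 0.43 in C57/BL6, and over all genes of 0.20, 0.25 and 0.31. It exceeded 0.5 for 1, 5 and 18 of the 39 genes in these strains, against 15.5%, 22.5% and 29.5% of all genes. Mmp2 had the widest gap, with replicate 2 of C57/BL6 lower than replicate 1 by 1.84 on its brightest probe set. On its other probe set these 2 arrays were at 8.16 (replicate 1) and 7.57 (replicate 2). The part of RNA integrity, for which the Gapdh ratio of 0.526 on C57/BL6 replicate 1 is given above, was not tested. These 2 arrays also differed in the summed signal of adipocyte markers (1240 and 4295) and pancreatic acinar markers (2835 and 68728). Acinar sums differed in Satin (1586 and 36900) and Beige (2768 and 9990) as well. The part of such admixed tissue was not tested. Replicate 2 was higher in 14 of 39 genes in Satin and 32 of 39 in Beige, against 12 of 39 in C57/BL6. In a fit of the replicate number with strain as a factor, 0 of the 39 genes were called (limma), against 0.0852% of all genes, and 0 had an unadjusted p under 0.05, against 4.74%.

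**Figure D4:**
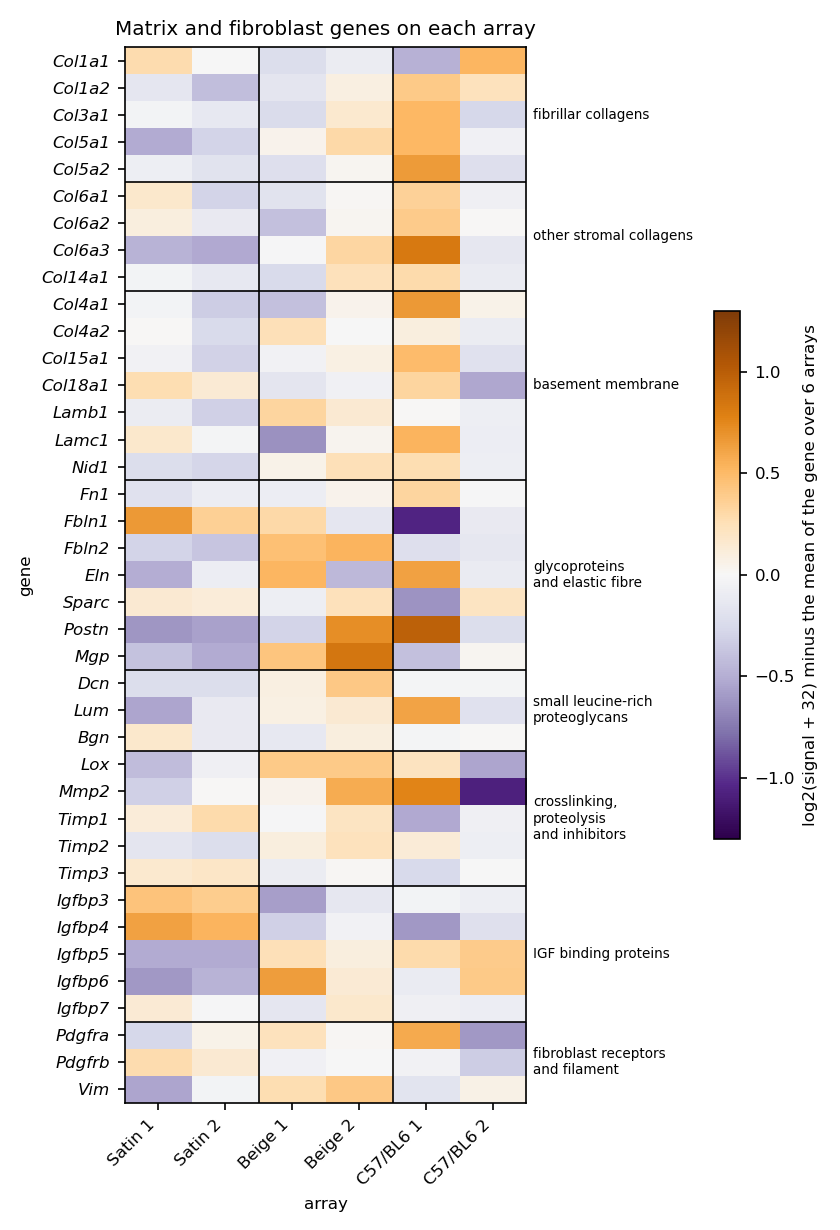
Heat map of the 39 genes (rows, grouped by role) on the 6 arrays (columns); colour is log2(signal + 32) minus the gene's own mean over the arrays, orange above and purple below. C57/BL6 replicate 1 is the highest array for 19 genes, and both Satin columns are orange for Igfbp3 and Igfbp4 and purple for Igfbp5 and Igfbp6.

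Markers of the other cells of the stomach wall were set beside these values. The summed normalized signal of the 39 genes was 15927 and 15199 in Satin, 15580 and 19079 in Beige, and 19674 and 15576 in C57/BL6, with Beige replicate 2 and C57/BL6 replicate 1 highest. Smooth muscle markers (13 of 13 tested, all below 0, 4 called lower, median -0.85) summed to 11160 and 12265 in Satin, 19339 and 22896 in Beige, and 22828 and 15727 in C57/BL6. The same 2 control arrays were highest there, and Satin was below all controls. The 4 were Des, Tpm2, Smtn and Actg2, contractile and cytoskeletal genes, at -1.53, -0.96, -0.89 and -0.97, all of which lost their call when either Beige array or the first Satin array was omitted (limma adjusted p = 0.067 to 0.384), and Smtn and Actg2 also without Satin replicate 2 (0.14 and 0.0578). Another probe set of Des gave 0.39, and those of Tpm2 gave -0.94, -0.06 and 0.43. Averaging probe sets ended the calls of Des (-0.58, limma adjusted p = 0.194), Tpm2 (-0.39, 0.357) and Actg2 (-0.98, 0.0761). With the replicate block Actg2 had an adjusted p = 0.0633, and without a filter 0.0787. A fit without the intensity trend called none of the 4 (limma adjusted p = 0.0668 to 0.189). With the values as deposited, centred on array medians or scaled to the hybridization controls, only Des was called (limma adjusted p = 0.0104 to 0.0206). Smtn had 0.195 to 0.237 there. The p-values of these settings include the shift of all genes, given below. Pericyte markers (6 of 6 tested, none called, median -0.37) summed to 1605 and 1503 in Satin, 2131 and 2995 in Beige, and 3085 and 1989 in C57/BL6. Rgs5 alone made up most of each sum. The mean log2 level of the 6 markers was 7.07 and 7.14 in Satin, 7.23 and 7.47 in Beige, and 7.50 and 7.23 in C57/BL6. Rgs5 and Notch3, with the smallest p among them, differed by -0.75 and -0.36, and other probe sets of Rgs5 ran from -2.28 to 0.34. No defining marker of smooth muscle or pericytes was below the filter. Their part in the lower Igfbp5 value was not tested, nor their part in the Postn, Mgp and collagen values, none of which was called.

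Further fibroblast markers (15 listed, 11 tested, none called, median -0.18) summed to 1520 and 1517 in Satin, 2122 and 2317 in Beige, and 2336 and 1644 in C57/BL6. Without Dpt the sums were 822 and 736 in Satin, 978 and 849 in Beige, and 868 and 650 in C57/BL6, so that C57/BL6 replicate 2 was lowest. The mean log2 level of the 11 was 6.88 and 6.86 in Satin, 7.10 and 7.05 in Beige, and 6.96 and 6.72 in C57/BL6, again lowest on that array, and their median against C57/BL6 alone was 0.09. Dpt, the dermatopontin gene, was at 9.51 and 9.67 in Satin, 10.20 and 10.55 in Beige, and 10.55 and 10.00 in C57/BL6 (difference -0.74, SE 0.18, limma adjusted p = 0.101, and 0.0194 without C57/BL6 replicate 2). Foxf1, a mesenchymal forkhead factor gene, differed by 0.82 (SE 0.35, limma adjusted p = 0.374). Fap, Twist1, Prrx1 and Gli1 lay below the filter. Endothelial markers (12 of 13 tested, none called, median -0.04) summed to 1008 and 856 in Satin, 942 and 1034 in Beige, and 1030 and 937 in C57/BL6, with overlap. Tek and Pecam1, which had their smallest p-values, differed by -0.51 and 0.63.

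**Figure D5:**
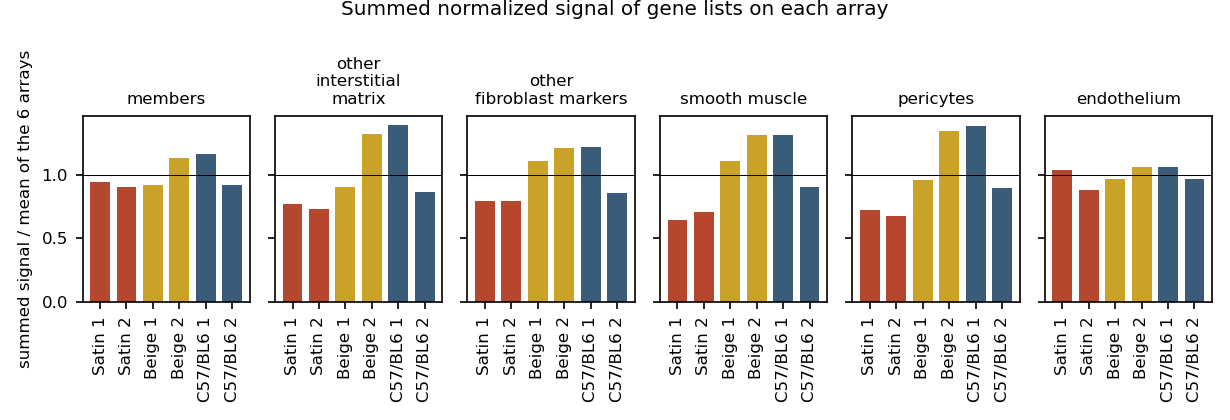
Summed normalized signal of the 39 genes and of 5 marker lists on each array, divided by the mean of the 6 arrays (y axis, from 0; the thin line is 1). The summed signal of Satin lies below all controls for smooth muscle, pericytes, other interstitial matrix and other fibroblast markers. For the last this does not hold without Dpt, and the pericyte sum is mostly Rgs5. Beige replicate 2 and C57/BL6 replicate 1 are the highest controls in those panels and for the 39 genes.

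Genes that act on the matrix were described from further lists. Of 18 collagen processing enzyme genes 15 were tested and none was called (median -0.01). Serpinh1, the collagen chaperone HSP47, was at 7.71 and 7.43 in Satin, 8.36 and 8.50 in Beige, and 8.68 and 8.26 in C57/BL6. It differed by -0.88 without overlap (SE 0.18, limma adjusted p = 0.0533, and 0.0189 without C57/BL6 replicate 2), and a dimmer probe set gave -0.22. Plod3, a lysyl hydroxylase gene, differed by 0.64 (SE 0.20, limma adjusted p = 0.196). Of 19 TGF-beta axis genes 16 were tested, 1 fell and none rose (median -0.03). It was Tgfbr2, the type II receptor gene, at 7.57 and 7.69 in Satin, 8.19 and 8.40 in Beige, and 8.52 and 8.56 in C57/BL6 (difference -0.79, SE 0.16, limma adjusted p = 0.0454, and 0.065 with the replicate block). Its other probe sets, below the filter, gave 0.15 and 0.39, and it kept its call without C57/BL6 replicate 2 alone among the 6 omissions (limma adjusted p of 0.0393 there and 0.0544 to 0.448 in the others).

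Of 19 matrix receptor genes 15 were tested and 1 rose, Sdc4, the gene of syndecan-4, a heparan sulphate proteoglycan of focal adhesions (median of the list -0.05). It was at 9.69 and 9.44 in Satin, 7.66 and 7.36 in Beige, and 8.03 and 7.64 in C57/BL6, a difference of 1.89 (SE 0.18, limma adjusted p = 0.00124), while its dimmer probe set gave -0.52. Sdc4 was called against each control strain and without each array in turn, but not with the mean of its probe sets (0.68, limma adjusted p = 0.17). Of 14 further protease and inhibitor genes 10 were tested and none was called (median -0.16). Timp4 and Ctsk, the cathepsin K gene, differed by -0.72 and -0.49. Of 26 further interstitial matrix genes 21 were tested and none was called, with 16 below 0 (median -0.24). Ogn, the osteoglycin gene, was at 9.06 and 8.78 in Satin, 9.70 and 9.94 in Beige, and 10.14 and 9.35 in C57/BL6 (difference -0.86, SE 0.22, limma adjusted p = 0.106, and 0.0106 without C57/BL6 replicate 2). Mfap5, a microfibril protein gene, differed by -0.72 (SE 0.20, limma adjusted p = 0.148).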

How the data were processed

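RNA of the stomach antrum of Satin, Beige and C57/BL6 mice was measured on 2 arrays per strain. Per the labels' protocols, RNA came from Trizol extraction and biotin-labelled cRNA was hybridized. For 22690 probe sets the authors deposited 1 intensity each per array, on a linear scale. How these were summarised or scaled, and which were detected, is not given in the sources used here. No sample column was left unused (0).

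After leaving out 64 control probe sets, log2(signal + 32) was quantile normalized between arrays. Of 20380 probe sets with a single gene symbol, the brightest stood for its gene, and genes whose mean fell among the lowest 30% of probe set means (below 5.74) were left out. The 4 strain comparisons came from 1 limma 3.58.1 fit in R 4.3.3 (lmFit, eBayes with intensity trend, two-sided, 3 residual degrees of freedom, 9.24 after moderation). The fit was run on simulated data with independent errors, as a check of the code only. That simulation held no replicate effect, admixed tissue or overall shift of signal, so it says nothing on their effect on the calls. Replicate differences of the strains correlated over all genes at 0.189 (Satin and Beige), 0.272 (Satin and C57/BL6) and 0.118 (Beige and C57/BL6). All lay over 0.1, so the title numbers were taken as a possible pairing of the arrays. A fit with the number as a block is given where it changes a call. The main fit, from which counts, SEs and calls come unless stated, did not use this pairing. Without the 9 pancreatic acinar markers, a check added after their values were seen, they were 0.127, 0.171 and 0.0589, the last under 0.1, so the pairing rests in part on those genes. Over the 39 genes the same correlations were -0.206, -0.282 and -0.243. No pair of arrays shared over 88 equal values. The arrays' number, 2 per strain, limits the precision.

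The members and lists were chosen with earlier results of these data known. Of the 39 genes, the called ones, the 3 with the smallest p in each comparison and the extremes of each of the 8 role groups are given on every array. Each further list has its called genes named, or the 2 with the smallest p. Col1a2, Dcn, Mmp2, Igfbp3 and Igfbp7, and the genes of further lists given on every array, were picked for that after their values were seen. Other normalizations, pseudocounts, filters, probe set rules, a fit without trend, the replicate block and the omission of each array were tried. A summed signal is the sum of normalized linear signals (32 taken off). Promoter sequences are from RefSeq, GRCm38.p6.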

Additional observations from a re-analysis of the deposited data

How the results depend on the processing

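Satin against the mean of both controls gave 2 called genes of 39. The count was 5 with the values as deposited and 9 scaled to the hybridization controls (all higher in Satin), 0 centred on array medians, without the trend or averaging probe sets, and 1 without a filter or with the replicate block. It was 0 to 4 when arrays were left out singly. Differences here are relative to the all-gene median, which lay at 0.43 and 0.44 in those first 2 settings and at 0.10 with median centring. The adjusted p-values and calls, however, test the differences before that median is taken off. In these settings they thus include the shift of all genes and do not test the printed difference. Against Beige the count was 0, and 2 as deposited, 1 with the hybridization controls and 0 to 2 on omission. Against C57/BL6 it was 0, and 7, 9 and, with a pseudocount of 100, 1, and 0 to 3 on omission. The median over the 39 genes stayed below 0 in all 3 Satin comparisons in each of the 15 settings, from -0.32 to -0.08 against both controls when arrays were omitted. Against C57/BL6 the omissions gave -0.37 to -0.03, and for Beige against C57/BL6, where it was 0.00, -0.10 to 0.19.

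Over all genes the count of 135 against both controls (41 higher, 94 lower) became 1531 as deposited (1469 higher), 1982 with the hybridization controls (1920 higher) and 36 without the trend, and was 46 higher and 46 lower with median centring. On omission it was 28 to 298. The 84 genes against Beige became 191, 179 and, with median centring, 52, then 49 without a filter, 37 averaging probe sets, 18 without the trend and 8 to 146 on omission. The 70 against C57/BL6 became 1875, 2586, 45, 33, 22 and 12 in the same order and 22 to 224 on omission. Beige against C57/BL6 gave 0, and 3 as deposited and 0 to 8 on omission. The causes were not tested.

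Igfbp4 kept its direction in all 15 settings (0.76 to 0.98) and its call in 7, and Igfbp5 its direction in all 15 (-0.84 to -0.23) and its call in 5. The Igfbp4 call ended with median centring (0.109), without a filter (0.0593), averaging probe sets (0.155) and without the trend (0.183). The Igfbp5 call ended in the 3 other scalings (0.282 to 0.422), averaging probe sets (0.708), without the trend (0.16) and with the block. In the 3 scalings the p-values include the all-gene shift. This holds also for the Igfbp4 calls kept as deposited and with the hybridization controls (limma adjusted p = 0.00116 and 0.000601). Against the mean of both controls the block ended the calls of Igfbp5, Tgfbr2 and Actg2 and changed no other call among the genes named. Genes near 0 changed sign. On omission of an array so did Retn, Car3, Cela1, Pnliprp1 and Krt4, which differed by -0.44, 0.87, -0.60, 0.60 and -0.38. In the 3 scalings Col6a1 was 0.03 and Col6a2 0.09, 0.09 and 0.10. With the mean of probe sets Col6a2 was 0.03, Col3a1 0.00, Bgn -0.11 and Timp3 -0.12. Over the omissions Col1a1 ran from -0.05 to 0.47, Col3a1 from -0.31 to 0.07, Col5a2 from -0.40 to 0.02, Col6a1 from -0.32 to 0.13, Col6a2 from -0.13 to 0.09 and Lamc1 from -0.05 to 0.28. Sparc ran from -0.02 to 0.41, Bgn from -0.11 to 0.17, Mmp2 from -0.68 to 0.23, Pdgfra from -0.44 to 0.14, Retn from -1.01 to 0.13, Car3 from -0.22 to 1.98, Cela1 from -1.68 to 0.47, Pnliprp1 from -0.81 to 2.01 and Krt4 from -0.97 to 0.23.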

Other observations

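Further cell types of the antrum and its surroundings gave these values. Macrophage markers (11 tested, none called, median -0.09) summed to 1723 and 2281 in Satin, 2714 and 2580 in Beige, and 2138 and 1775 in C57/BL6, with overlap. Mrc1 and Csf1r, genes of a mannose receptor and of the CSF-1 receptor, differed by -0.57 and -0.33 (limma adjusted p = 0.225 and 0.461). Adipocyte markers (6 of 9 tested, none called) summed to 2827 and 3846 in Satin, 3879 and 3598 in Beige, and 1240 and 4295 in C57/BL6, lowest on C57/BL6 replicate 1. On that array Car3, a carbonic anhydrase gene of fat, was at 6.14, against 9.67 and 10.68 in Satin, 10.25 and 10.29 in Beige, and 10.54 on C57/BL6 replicate 2. Retn, the resistin gene, differed by -0.44.

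Pancreatic acinar markers (9 tested, none called) summed to 1586 and 36900 in Satin, 2768 and 9990 in Beige, and 2835 and 68728 in C57/BL6, higher on replicate 2 in each strain. Cela1 and Pnliprp1, genes of an elastase and a lipase-related protein, differed by -0.60 and 0.60. The summed signal of the 39 matrix and fibroblast genes was higher on replicate 2 in Beige only.

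Mesothelial markers (3 of 6 tested, none called) had Gpm6a at 0.65 and Upk3b at -0.54. Squamous epithelium markers (4 of 6 tested, none called) had Krt5 at 0.52 and Krt4 at -0.38, and enteric neuron and glia markers (7 of 11 tested, none called) had Stmn2 at -0.54 and S100b at -0.40. Of 11 gland and pit epithelium markers 1 fell, the mucin gene Muc5ac, at 8.56 and 8.58 in Satin, 12.95 and 12.94 in Beige, and 13.11 and 12.65 in C57/BL6.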
